A study of Mus musculus with 4 samples.

Results

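The 9 genes described here encode the classical MHC class I heavy chains H2-K1 and H2-D1, their light chain B2m, and the machinery that supplies them with peptide, namely Tap1, Tap2, Tapbp, Psmb8, Psmb9 and Psmb10. They were chosen by name among the gene probes of the arrays, which gave 9 of 27597 genes, or 17 probes of 41174. H2-K1 was read by 4 probes, B2m by 3, H2-D1, Tapbp and Psmb8 by 2 each, and the others by 1. The cells were mouse embryonic fibroblasts (MEFs), connective-tissue cells grown from embryos, in logarithmic growth in DMEM with fetal bovine serum and without treatment. The G1KO culture was CycG1-/- and lacked every protein-coding exon of Ccng1 (cyclin G1), and it was set against a CycG1+/+ wild-type (WT) culture. The G2KO culture was CycG2-/- (cyclin G2) and was set against a CycG2+/+ WT culture of its own. The strain is given as C57BL/6J for the G1KO pair, while the labels of the G2KO pair also carry C57BL/7J. Each pair was hybridised together on 2 two-colour arrays with the dyes exchanged, so that each genotype was 1 culture, and a difference between genotypes has no replicate check. Values after ± are the SD between the 2 arrays, which is technical. Precision is limited by having 2 arrays a pair.

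Class I molecules display peptides from inside the cell to CD8 T cells. Proteins are cut by the proteasome, whose interferon-inducible subunits Psmb8, Psmb9 and Psmb10 replace their constitutive counterparts, and the Tap1-Tap2 transporter carries the peptides into the endoplasmic reticulum. There tapasin (Tapbp) holds the heavy chain and B2m beside the transporter until a peptide is bound. In fibroblasts the pathway is active at a low level and is raised by interferons through IRF factors.

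The promoters of H2-K1 and H2-D1 are shown first because the heavy chains moved together, with those of B2m and Tapbp for comparison. The windows run from 250 bases before to 50 bases after a gene's annotated start and were taken from RefSeq (GRCm38.p6), which held such a window for 8 of the 9 genes. They were chr17:34000298-34000597 (minus strand) for H2-K1, where the first of 2 annotated starts was used, chr17:35262844-35263143 (plus strand) for H2-D1, chr2:122147437-122147736 (plus strand) for B2m and chr17:33919228-33919527 (plus strand) for Tapbp. Capitals mark matches, on either strand, to the letters GAAANNGAAA (an interferon-stimulated response element), GAAGTGAAA (the IRF site of class I promoters), GGGNNTTCC (an NF-kB core), TGACG (a CRE core) and CCAAT.
H2-K1: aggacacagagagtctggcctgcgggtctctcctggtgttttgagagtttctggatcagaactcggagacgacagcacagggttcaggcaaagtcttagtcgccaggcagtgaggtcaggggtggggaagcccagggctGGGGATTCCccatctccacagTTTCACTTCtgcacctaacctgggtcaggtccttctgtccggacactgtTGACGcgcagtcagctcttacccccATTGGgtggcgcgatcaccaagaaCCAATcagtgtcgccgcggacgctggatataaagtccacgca
H2-D1: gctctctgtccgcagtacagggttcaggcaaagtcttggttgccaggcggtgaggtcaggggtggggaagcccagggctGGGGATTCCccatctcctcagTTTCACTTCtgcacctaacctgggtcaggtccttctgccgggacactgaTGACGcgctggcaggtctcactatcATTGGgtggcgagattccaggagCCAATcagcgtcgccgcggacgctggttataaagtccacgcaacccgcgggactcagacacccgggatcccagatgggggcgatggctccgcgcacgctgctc
B2m: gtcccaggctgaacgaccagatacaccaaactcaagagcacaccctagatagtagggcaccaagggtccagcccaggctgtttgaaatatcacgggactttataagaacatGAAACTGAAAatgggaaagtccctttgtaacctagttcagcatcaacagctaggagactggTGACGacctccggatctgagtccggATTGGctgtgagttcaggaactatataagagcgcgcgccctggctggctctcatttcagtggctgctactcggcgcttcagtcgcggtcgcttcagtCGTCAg
Tapbp: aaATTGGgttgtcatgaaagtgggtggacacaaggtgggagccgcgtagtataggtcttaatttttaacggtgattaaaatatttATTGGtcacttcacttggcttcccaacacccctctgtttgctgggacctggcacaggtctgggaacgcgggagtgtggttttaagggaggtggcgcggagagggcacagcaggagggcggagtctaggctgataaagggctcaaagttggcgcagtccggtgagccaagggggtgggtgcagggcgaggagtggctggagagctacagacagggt
The H2-K1 and H2-D1 windows hold the same NF-kB core and IRF site, with the CRE core and a pair of CCAAT boxes after them. Without gaps, 176 of 240 aligned bases (73.3%) were identical. Of all 32851 promoter windows, 0.505% hold GAAGTGAAA, 3.44% GAAANNGAAA, 5.82% GGGNNTTCC, 20.8% TGACG and 37.4% CCAAT. GAAGTGAAA and GGGNNTTCC were found together in H2-K1 and H2-D1 among the 8 genes, whereas B2m held GAAANNGAAA and Tapbp held CCAAT alone of these motifs. The 5 motifs do not overlap each other in these windows. A match describes the letters, and binding was not measured.

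The targeted genes and the cells were examined next. The brightest Ccng1 probe had a log2 ratio of -6.67 ± 0.13 in G1KO over WT, and 2.67 ± 0.03 in the RNA labelled G2KO over its WT. The Ccng2 probe was not reduced in the RNA labelled G2KO, at 0.09 ± 0.27, and its place relative to the deleted part was not analysed here, so that culture is called by its label and directions in its comparison rest on that label. Xist, the RNA of the inactive X, had log2 ratios of 7.54 for G1KO and 7.24 for the RNA labelled G2KO, and the Y-linked Eif2s3y was well above background in the WT cultures alone. Sex thus differed with genotype in both pairs and cannot be told apart from it. All 9 fibroblast markers, Col1a1 and Vim among them, were well above background in every culture. Of these, 6 were called lower in the RNA labelled G2KO. The G1KO comparison had 1 called lower (Dcn) and 1 higher (Pdgfrb, at 1.09). Of 10 leukocyte markers, Ptprc, Adgre1, Itgam, Tyrobp and Laptm5 were not well above background on any array, and the summed linear level of the list was between 1183 and 1653 in every culture and channel. None was called in G1KO (5 tested) or in the RNA labelled G2KO (4 tested). Single markers differed more than the sum. Lyz2 was called higher in the WT of the G2KO pair than in the WT of the G1KO pair, at 2.54, and Cd14 had -1.06 there, not called.

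The heavy chains were lower in G1KO. The brightest H2-K1 probe (chromosome 17, minus strand, 33606564 to 33606623, build mm8) had log2 ratios of -2.27 and -2.11 on the 2 G1KO arrays. The mean was -2.19 ± 0.12, that is 4.56-fold lower in G1KO than in its WT. A probe at 33606572 to 33606626 gave -2.11 and -2.02, the probe at 33609797 to 33609856 gave -1.85 and -1.85, and the probe at 33609987 to 33610233 gave -1.53 and -1.40. All 4 H2-K1 probes thus moved the same way on each array, by between 2.77-fold and 4.56-fold. The first 2 of them overlap by position, so they are not separate readings of the gene.

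H2-D1 encodes the second classical heavy chain of this strain. Its brighter probe (chromosome 17, plus strand, 34874240 to 34874299) gave -1.89 and -1.76, with a mean of -1.83 ± 0.09 (3.55-fold lower). This probe is also annotated to an H2-Q2 transcript, and class I genes resemble each other closely, so which class I transcripts it reads is uncertain. The other H2-D1 probe, at 34874545 to 34874777 and annotated to H2-D1 transcripts, gave -1.94 and -1.78.

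Calls required at least a 2-fold difference with the same sign on both arrays, and probes were tested where at least 1 genotype was well above background on both arrays. All 17 probes passed that filter in each comparison. In G1KO, 6 of the 17 probes were called lower, all of them for H2-K1 and H2-D1, and none higher. Over all tested probes 3.80% were called lower and 1.99% higher. Counted by the brightest probe of each gene, 2 of 9 genes were lower. The median log2 ratio over the 9 genes was -0.22, beside 0.00 over all tested probes, and 0.983% of all tested probes had a ratio as low as that of H2-K1.

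**Figure D1:**
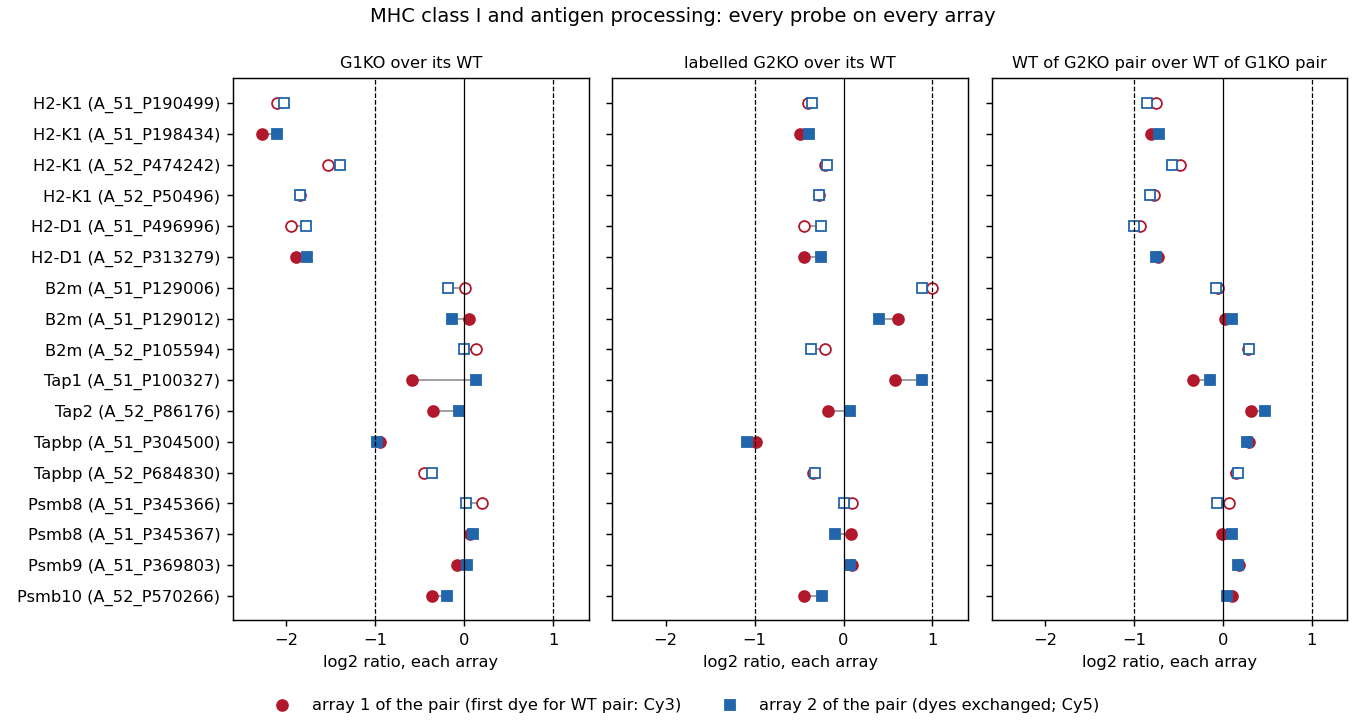
Log2 ratios of all 17 probes on each array of a pair (circles and squares, dyes exchanged). Filled symbols are the brightest probe of a gene, and dashed lines mark a 2-fold difference. The third panel gives the 2 dye-matched differences between the WT cultures. The 6 heavy chain probes lie between -2.27 and -1.40 in G1KO, and every other probe lies above -1.

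The heavy chains were not called in the pair labelled G2KO. The brightest H2-K1 probe gave -0.49 and -0.38, and the brighter H2-D1 probe gave -0.44 and -0.25. The ratio was below 0 on both arrays for all 6 heavy chain probes, with means between -0.44 and -0.20. None of the 17 probes was called in either direction there, while 4.06% of all tested probes were called lower and 2.31% higher. The median over the 9 genes was -0.05, against -0.01 over all tested probes.

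The 2 WT cultures also differed in the heavy chains. On the log2 scale of normalised brightness, the brightest H2-K1 probe had a level of 10.60 ± 0.01 in G1KO, 12.79 ± 0.10 in its WT, 11.59 ± 0.04 in the RNA labelled G2KO and 12.03 ± 0.04 in the WT of that pair. The order was therefore WT of the G1KO pair, WT of the G2KO pair, labelled G2KO and G1KO. Each neighbour differed in the same direction in both dyes and by more than 2 times the technical SD, which over all tested probes was 0.13 in each pair. The brighter H2-D1 probe had levels of 10.67 in G1KO, 12.50 in its WT, 11.41 in the RNA labelled G2KO and 11.76 in the WT of that pair. This is the same order, again with every neighbour apart by more than that spread.

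Between the WT cultures, matched by dye, H2-K1 was lower in the WT of the G2KO pair by 0.81 in Cy3 and 0.72 in Cy5, and H2-D1 by 0.73 and 0.76. All 6 heavy chain probes were lower there, with means between -0.97 and -0.53. None was called, where 5.64% of tested probes were called lower and 5.39% higher between the WT cultures. The G1KO difference of H2-K1 was thus 2.19 on the log2 scale, beside 0.76 between 2 WT cultures.

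**Figure D2:**
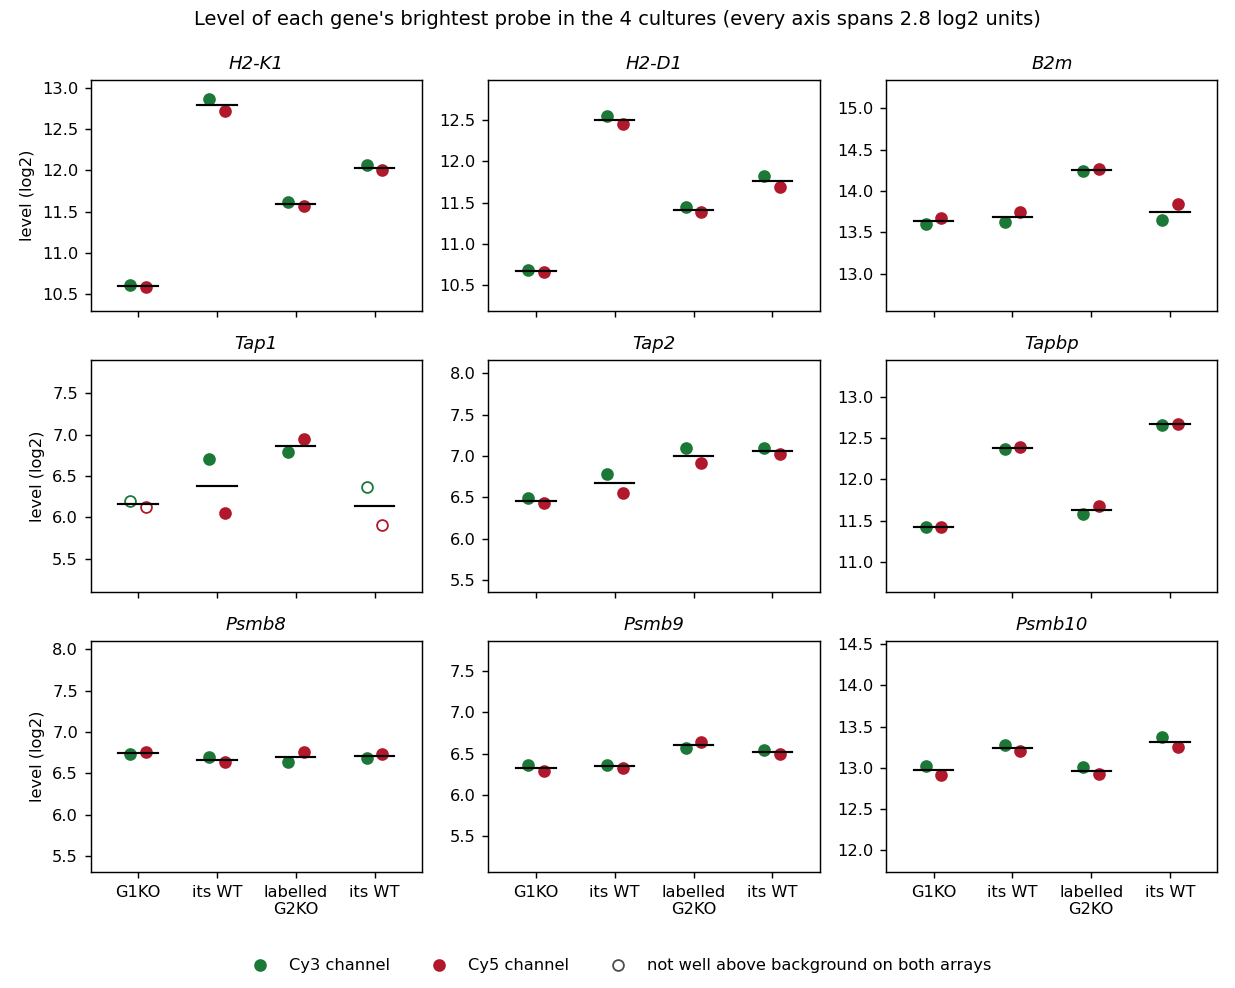
Level of the brightest probe of each gene in the 4 cultures, in log2 of normalised brightness. Points are the Cy3 and Cy5 channels, bars their mean, and open points mark cultures not well above background on both arrays. H2-K1 and H2-D1 span the widest range, from G1KO to its WT, and Psmb8 and Psmb9 lie within 0.28 units.

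B2m, the light chain shared by all class I molecules, did not follow the heavy chains in G1KO. Its brightest probe (chromosome 2, plus strand, 121844106 to 121844165) gave 0.06 and -0.14 there, and the probe at 121844230 to 121844286, printed 10 times on each array, gave 0.01 and -0.18. For the RNA labelled G2KO the brightest probe gave 0.62 and 0.39 and the probe printed 10 times gave 0.99 and 0.88. Neither was called, the latter lying just short of 2-fold. The third probe, at 121840304 to 121840363 and annotated to a different transcript sequence, gave -0.21 and -0.37 there, opposite to the others. The levels of the brightest probe were 13.64 in G1KO, 13.68 in its WT, 14.25 in the RNA labelled G2KO and 13.75 in the WT of that pair. The RNA labelled G2KO was above its neighbour by 0.51, and the other cultures did not differ beyond the spread.

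The transporter genes were dim. Tap1 had a single probe (chromosome 17, plus strand, 33804121 to 33804180), with levels of 6.16 in G1KO, 6.38 in its WT, 6.87 in the RNA labelled G2KO and 6.13 in the WT of that pair. The lowest signals well above background were between 5.74 and 6.13 per channel on this scale, so ratios of dim probes are compressed by the offset of 50 added before the logarithm. G1KO was well above background on 1 of 2 arrays and the WT of the G2KO pair on neither. The G1KO arrays gave -0.58 and 0.14, of opposite sign. In the RNA labelled G2KO the arrays gave 0.58 and 0.88. With the WT signal floored at the lowest one well above background, the mean Tap1 ratio was 0.69, or 1.61-fold higher. It is an estimate and not a lower limit, since array 1 alone gave less, as did the mean without background correction (0.53). With the scanner's own log ratio, Tap1 was called in both pairs, lower in G1KO at -1.69 and higher in the RNA labelled G2KO at 3.63. Tap2, at 33825052 to 33825639, gave -0.36 and -0.06 in G1KO and -0.18 and 0.07 in the RNA labelled G2KO. Its levels were 6.46 in G1KO, 6.67 in its WT, 7.00 in the RNA labelled G2KO and 7.06 in the WT of that pair.

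Tapbp had nearly the same ratio in both pairs. The brighter of its probes (chromosome 17, plus strand, 33539531 to 33539590) gave -0.95 and -0.98 in G1KO and -0.98 and -1.09 in the RNA labelled G2KO. The means of -0.96 ± 0.02 and -1.04 ± 0.07 lie on either side of the 2-fold line, but in each pair at least 1 array fell short of it, so Tapbp was not called. The other probe, at 33536605 to 33536664, gave -0.41 and -0.34 as means, a smaller difference of the same sign. The levels of the brighter probe were 11.42 in G1KO against 12.38 in its WT, and 11.63 in the RNA labelled G2KO against 12.66 in the WT of that pair. The WT cultures lay 0.28 apart, and the knockout-labelled cultures lay 0.21 apart, within the spread. No culture is shared between the 2 comparisons. At a threshold of 1.5-fold on each array, H2-K1, H2-D1 and Tapbp were called lower in G1KO, Tapbp alone in the RNA labelled G2KO, and H2-K1 and H2-D1 between the WT cultures. The shares of all tested probes called at 1.5-fold in either direction were 13.1%, 14.6% and 23.6%, respectively. At 4-fold H2-K1 alone was called, in G1KO, with shares of 1.51%, 1.84% and 3.45% over all tested probes.

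The inducible proteasome subunits differed little as processed here. Psmb8, the LMP7 subunit, was read brightest at 33811038 to 33811097 on chromosome 17, where G1KO gave 0.08 ± 0.02 and the pair labelled G2KO gave -0.01 ± 0.12. The other probe gave 0.11 and 0.05. Psmb9, the LMP2 subunit (33792517 to 33792576), gave -0.02 ± 0.08 and 0.08 ± 0.02. Both were dim, with levels between 6.33 and 6.75 at these probes, so a difference could be read less well than for the bright genes. Their order over the cultures was not resolved beyond the spread. Psmb10, the MECL-1 subunit, lies outside the H2 region (chromosome 8, 108824906 to 108824965) and was bright, at 12.97 in G1KO, 13.24 in its WT, 12.97 in the RNA labelled G2KO and 13.31 in the WT of that pair. Its ratios were -0.36 and -0.19 in G1KO and -0.44 and -0.25 in the RNA labelled G2KO, below 0 on all 4 arrays and not called.

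**Figure D3:**
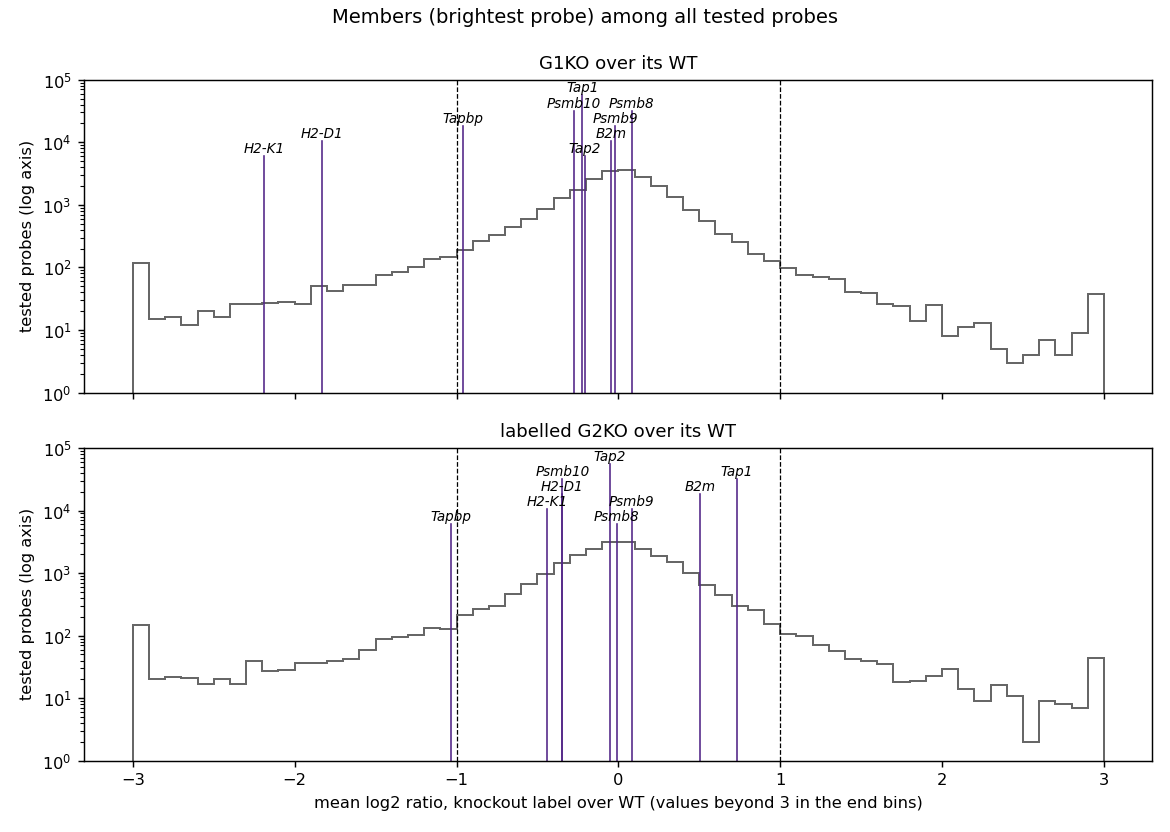
Number of tested probes by mean log2 ratio in bins of 0.1 (outline, log axis), with each gene's brightest probe as a vertical line. H2-K1 and H2-D1 stand in the lower tail in G1KO, at -2.19 and -1.83, and Tapbp stands near -1 in both comparisons.

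The other class I genes were examined from a list of 29 heavy chains and relatives, of which 23 had a probe and 15 were tested. The tested genes include Cd1d1, Mr1, Fcgrt and Hfe, which lie outside the H2 region. In G1KO 7 of the 15 were called lower and none higher, with a median of -0.77. In the RNA labelled G2KO 2 were lower and 1 higher, with a median of -0.32. The largest in G1KO were H2-Q2 at -1.83, H2-T23 (Qa-1, which presents leader peptides to natural killer cell receptors) at -1.77, H2-K2 at -1.76, H2-Q7 (Qa-2) at -1.73, H2-Q1 at -1.70 and H2-Q10 at -1.43. In the RNA labelled G2KO these 6 lay between -0.20 and -0.36. Their probes may cross-react with H2-K1 and H2-D1, so these are not shown to be independent measurements. H2-T10 and H2-T22, non-classical molecules that bind no peptide, had -0.75 and -0.77 in G1KO. H2-M3, which presents formylated peptides, went the other way, at 0.80 in G1KO and, called, at 1.17 in the RNA labelled G2KO. Its dimmer probe gave 0.25 and 0.44, of the same sign but smaller and not called. The 2 genes lower in the RNA labelled G2KO lie outside the H2 region. They were Cd1d1, which presents lipids, at -1.27, and Mr1, which presents vitamin B metabolites, at -1.15, against 0.44 and -0.14 in G1KO. Of the 17 listed genes with a promoter window, 5 held GAAGTGAAA, among them H2-Q7 and H2-Q10, which were lower in G1KO, and H2-M3, which was not. GAAGTGAAA and GGGNNTTCC were found together in 3 of the 17, H2-Q7 among them, as in H2-K1 and H2-D1. H2-Q2 and H2-T23, which were lower in G1KO, had windows without GAAGTGAAA, but the H2-T23 window held GAAANNGAAA, as did that of H2-T22.

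Few other genes of the region were called. Between the Tapbp and H2-M3 probes, over 3.35 Mb of chromosome 17, 16 of 23 tested class I probes were called lower in G1KO, against 5 of 142 other probes. The 16 include the 6 probes of H2-K1 and H2-D1 given above, and the rest may cross-react with these genes. Of those 5, Ddr1 had a gene symbol and the other 4 were unnamed or predicted sequences. These 4 lie among the H2-Q and H2-T probes, with ratios between -1.70 and -1.35 in G1KO. Whether they read class I transcripts was not analysed. This window was chosen after the values were seen. None of the 33 tested neighbours listed for having no role in presentation was lower in G1KO, with a median of 0.05. The complement gene C2 was higher there at 1.17, and B3galt4 was lower in the RNA labelled G2KO at -1.36. Of 11 MHC class II genes, 3 were tested (H2-DMa, H2-DMb1 and Cd74), and none was called.

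**Figure D4:**
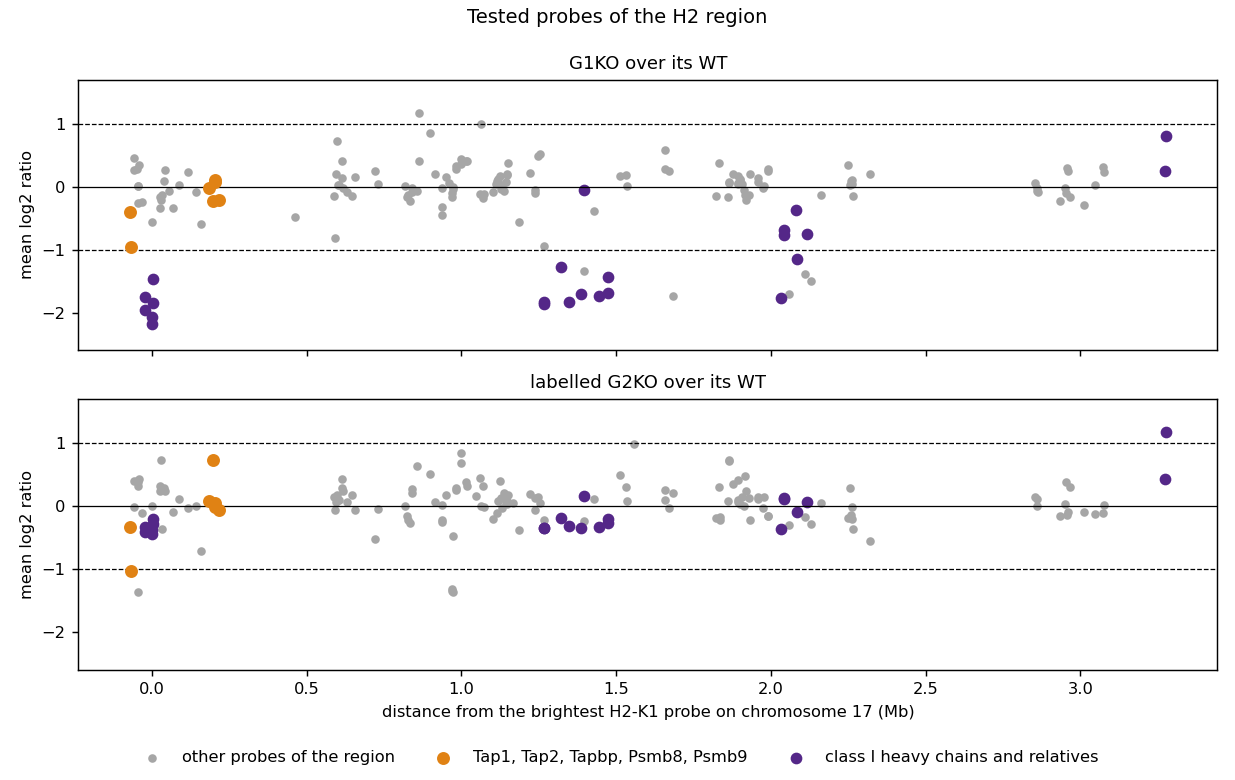
Mean log2 ratio of the tested probes between Tapbp and H2-M3 against distance from the brightest H2-K1 probe in Mb, in each comparison. In G1KO 16 of 23 class I probes, the 6 of H2-K1 and H2-D1 included, were called lower, below the dashed line at -1. Most neighbours and Tap1, Tap2, Psmb8 and Psmb9 lie near 0, and the Tapbp probes lie at -0.96 and -0.41.

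The genes around the pathway were largely level. Of 11 genes for peptide loading and trimming none was called. The largest in the pair labelled G2KO were the chaperones Pdia3 at -0.89, Hspa5 at -0.85 and Calr at -0.82. None of the constitutive proteasome genes and activators was called, with a median of 0.08 in G1KO (18 tested) and -0.13 in the RNA labelled G2KO (19 tested). Among 16 tested regulators of class I transcription none was called in G1KO. Stat2, a partner of IRF factors in the interferon response, had -0.64 there, and Nfkb1, a subunit of NF-kB, had 0.53. Stat3 was lower in the RNA labelled G2KO at -1.30. Of 11 tested receptors, kinases and feedback genes, Socs1, an inhibitor of interferon signalling, was higher in both pairs, with 1.13 and 1.24 on the G1KO arrays and 1.09 and 1.11 on those of the pair labelled G2KO. It was also higher by 1.95 in the WT of the G2KO pair than in the WT of the G1KO pair. Ifngr2, a chain of the interferon-gamma receptor, was lower in the RNA labelled G2KO at -1.59.

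Markers of other cell types differed along with the heavy chains in the G1KO pair. Of 9 mesothelial and other epithelial markers 8 were tested, and 5 were called lower in G1KO (Krt8, Upk3b, Msln, Wt1 and Lrrn4) and 1 higher (Krt19). Their summed linear level was 56288 and 61279 in the 2 channels of G1KO, 240951 and 201909 in its WT, 4335 and 3987 in the RNA labelled G2KO and 1989 and 1924 in the WT of that pair, with Epcam not well above background on any array. Such a sum follows the brightest markers. Of 3 markers tested in the pair labelled G2KO, Msln was called higher at 1.60 and Krt19 lower at -1.40. The WT of the G1KO pair was highest in the summed level and in H2-K1, while G1KO was lowest in H2-K1 and second in the summed level. Of 6 endothelial markers 2 were tested in G1KO, where Emcn was lower at -2.65 and Kdr was level at 0.06. Pecam1, Cdh5 and Tie1 were not well above background on any array. Of 6 neural markers, Sox2 and Nes were higher in the RNA labelled G2KO, at 5.59 and 3.37, and Nes was higher in G1KO at 2.34. The part of these cell types in the class I differences was not tested. In bulk RNA, fewer cells of a type and less RNA per cell cannot be told apart.

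By likeness over the 4 cultures, H2-K1 spanned the widest range of the 9 genes. Among 4170 probes of other named genes that were well above background on every array and spanned at least 2-fold, the 5 genes with the smallest root mean square difference from its centred levels were Cmtm8 (0.08), Gadd45b (0.12), H2-K2 (0.13), H2-D1 (0.14) and Atp8a1 (0.15, all in log2 units). With 4 cultures this describes resemblance only.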

How the data were processed

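Two-colour Agilent arrays were read by the authors with Feature Extraction (version 10.5.1.1 in the headers). Deposited scanner files give intensity, the mean brightness of each spot and the median of its surroundings in each channel, not background-subtracted. They also hold a log10 ratio of Cy5 over Cy3 that the authors' software had background-subtracted and dye-normalised, and the deposited series table holds the same log10 ratios turned to knockout over WT. limma 3.58.1 (R 4.3.3) was used for normexp background correction (offset 50) and loess within each array, omitting control and outlying spots. Between 114 and 203 outlying spots per array were left out. Spots of a probe were averaged, and channel levels were scaled between arrays by Aquantile. No spot was saturated. A gene was represented by its brightest tested probe. With 1 culture per genotype no test was made. Mean ratios balance the dyes. For the floored Tap1 ratio, the brighter genotype was compared with the dim signal or, if higher, with the lowest one well above background. Names came from RefSeq (GRCm38.p6): 24375 probes by accession, 6301 by symbol and 2426 by older symbol, with 8072 left as in the files. Probe positions are of mm8, and exons were not analysed. Members and lists were chosen with earlier results of these data known. List genes named were those called (up to 6, largest first), or otherwise up to 3 with the largest ratio. The calculation was tested on simulated data. A gene of the lists is not reported here.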

Additional observations from a re-analysis of the deposited data

Results flagged for a closer look

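For 1 of the 17 member probes, and for 6 of the 31 named genes of the lists and markers that were tested in both pairs, every array of the G1KO pair lay on the other side of 0 from every array of the pair labelled G2KO. The same held for 38 of all 126 listed genes tested in both, and the difference between the pairs was not tested. The third B2m probe gave 0.13 and 0.00 in G1KO and -0.21 and -0.37 in the RNA labelled G2KO, so the latter pair was lower by a difference of -0.36. It disagreed there with the other B2m probes. Cd1d1 gave 0.33 and 0.55 in G1KO and -1.42 and -1.11 in the RNA labelled G2KO, a difference of -1.70. H2-T22 gave -0.90 and -0.64 in G1KO and 0.02 and 0.19 in the other pair, a difference of 0.87, without a call in either. Nfkb1 differed by -0.76 between the pairs, also without a call in either. Among the markers the differences were -1.97 for Pdgfrb, -4.29 for Krt19 and 4.38 for Msln.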

How the results depend on the processing

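H2-K1 and H2-D1 were called lower in G1KO under every alternative except the 4-fold threshold, which kept H2-K1 alone (1 call). Over all alternatives H2-K1 ranged from -2.27 to -1.89 and H2-D1 from -1.89 to -1.76. In the RNA labelled G2KO the count was 1 in place of 0 with an offset of 16 (Tapbp, -1.05), with the scanner's own log ratio (Tap1, 3.63), with the series table (Tap1, 3.64) and at 1.5-fold (Tapbp). Leaving out 1 array gave 0 to 1 there, the call being Tapbp at -1.09 without replicate 1. At 1.5-fold 2 genes were called between the WT cultures. The median over the 9 genes moved from -0.22 to -0.47 in G1KO with the scanner's ratio and with the series table, and to between -0.36 and -0.14 with either array alone. It moved to -0.20 in the RNA labelled G2KO where both genotypes had to be well above background, which leaves out Tap1, and to -0.081 between the WT cultures without scaling between arrays. Of the single-gene values under the alternatives, 240 kept their call and, where there was no call, moved by less than the spread between arrays, 39 moved by more without a change of call and 6 gained a call, for Tap1 or Tapbp. The causes were not tested. No paired analysis was possible because each genotype was 1 culture and the replicate number marks the dye swap.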
